A study of Drosophila melanogaster with 6 samples.

Results

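The genes described here encode enzymes that split starch, maltose-type sugars and trehalose in the fruit fly Drosophila melanogaster. They are the α-amylase genes Amy-p (CG18730) and Amy-d (CG17876), the amylase-related gene Amyrel (CG8221), the α-glucosidase gene tobi (CG11909) and the trehalase gene Treh (CG9364). The genes were chosen by name as carbohydrate-digesting genes that respond to dietary sugar. Each was represented by the array row annotated to that gene alone, and each of the 5 genes had exactly 1 such row. They are 5 of the 13402 genes with a row of their own.

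The study compared larvae on a semi-purified diet (control) with larvae on that diet supplemented with palm fruit juice (juice), a water-based extract of the fruit of the oil palm that is rich in phenolics. All larvae were of the strain w1118, a white-eyed laboratory stock, and ate their diet from the egg until an age of 5 days. Each group had 3 arrays, and each array was hybridised with RNA pooled from the whole bodies of 3 to 4 larvae. A value is therefore an average over larvae and over organs, and fewer cells of a type cannot be told apart from less RNA per cell. Markers of several organs of a larva were measured at high values: the midgut protease gene Jon65Aiv lay between 10.97 and 11.43 on the log2 scale, the fat body storage protein gene Lsp2 between 12.27 and 12.56, and the muscle gene Mlc2 between 10.86 and 11.98. Control replicate 1 and juice replicate 2 stood apart from the rest, where 536 and 440 of 10051 genes deviated by 2-fold or more from the average of the remaining arrays. The other 4 arrays had 54 to 178 such genes.

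In a fly larva, amylases secreted into the gut cut starch into maltose and short glucose chains, and α-glucosidases and maltases release glucose from these. Glucose is then converted into trehalose, the main blood sugar of insects, which trehalase splits again where the sugar is used. Amylase transcripts are a classical case of repression by dietary glucose in this species. The gene tobi, named as a target of brain insulin, was described as responding to the insulin-like and glucagon-like hormones of the fly and to the protein and sugar content of the food.

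None of these genes differed detectably between the diets. The largest difference in group means was that of tobi, 1.51-fold higher with juice, and it was smaller than the spread between control pools; means at least 1.5-fold apart were seen in 5.19% of all tested genes. Amy-p was 1.07-fold higher with juice, whereas Amyrel and Treh were 1.08-fold and 1.04-fold higher in control. Of the 5 genes 4 were bright enough to be tested, and limma called 0 of them at adjusted p under 0.05, as it did for 0% of all 10051 tested genes. At unadjusted p under 0.05 it gave 0 of the 4, where the share of all tested genes was 4.68%. The control and juice arrays overlapped in every member, whereas they did not overlap in 10% of tested genes. The unmoderated test and limma with a trended, robust variance also called 0 genes at adjusted p under 0.05.

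**Figure D1:**
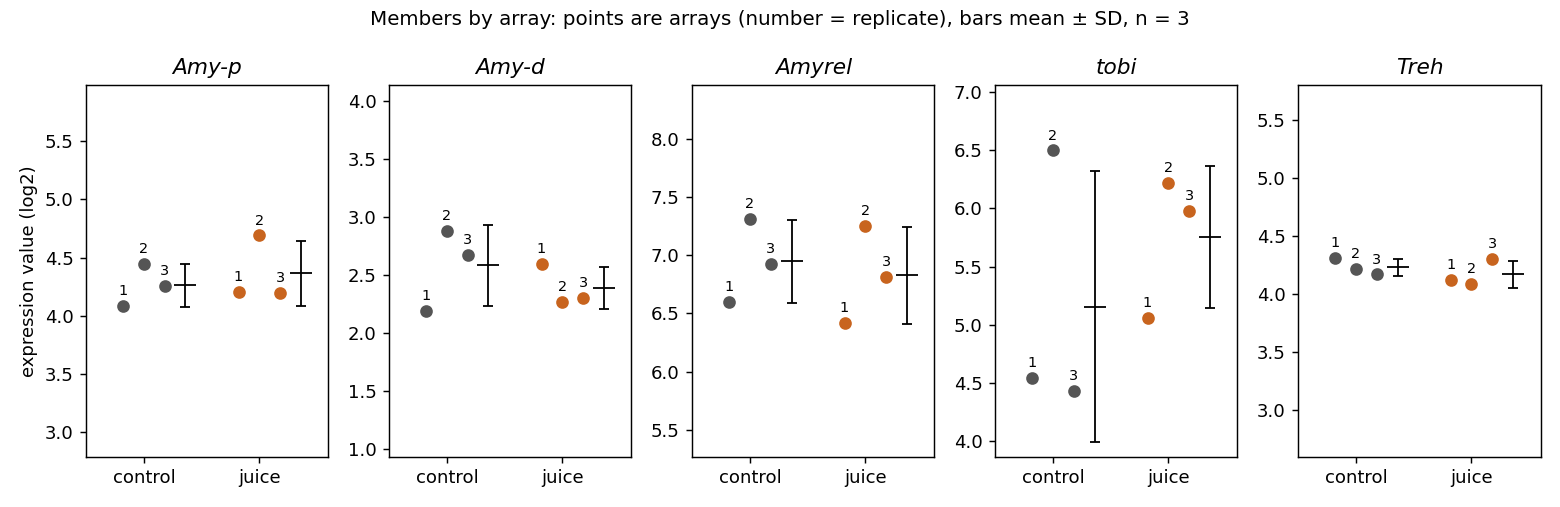
Log2 expression values of the 5 genes on each array, with the replicate number above each point and the mean ± SD of the 3 arrays of a group beside them; every panel spans the same number of log2 units. The 2 groups overlap in all panels, tobi spreads from 4.43 to 6.50, and Treh stays between 4.09 and 4.31.

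Amy-p, the proximal copy of the duplicated α-amylase gene, measured 4.08, 4.44 and 4.25 in control replicates 1 to 3 and 4.20, 4.69 and 4.20 in juice replicates 1 to 3 (log2). The highest value was that of juice replicate 2, and the other juice arrays lay between the control arrays. The means were 4.26 ± 0.18 in control and 4.36 ± 0.28 in juice larvae (SD, n = 3 per group). The difference was 0.10 ± 0.19 on the log2 scale (limma's SE; 95% interval -0.34 to 0.55; adjusted p = 0.962). Without juice replicate 2 its sign turned, to -0.059.

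Amy-d, the distal copy, lay at the dim end of the scale, with a mean over all arrays of 2.48, below the limit of 2.63 that a gene had to reach to be tested. It measured 2.19, 2.88 and 2.67 in control and 2.59, 2.26 and 2.30 in juice larvae. Control replicate 1 was the lowest array and control replicates 2 and 3 were the highest, so the juice arrays fell inside the control range. The means were 2.58 ± 0.35 and 2.39 ± 0.18 (SD, n = 3 per group). With dim genes kept in the fit, the difference was -0.19 ± 0.20 (95% interval -0.67 to 0.28; limma's adjusted p = 0.953). Amy-p and Amy-d are near-identical copies that lie close together with 2 annotated genes between them. Which probes their rows hold is not given in the sources used here, so a part of either signal may come from the other copy.

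Amyrel, a diverged relative of the amylase genes, measured 6.60, 7.31 and 6.93 in control and 6.42, 7.26 and 6.81 in juice larvae. Both groups held 1 low, 1 middle and 1 high array, and their ranges nearly coincided. The means were 6.95 ± 0.36 in control and 6.83 ± 0.42 in juice larvae (SD, n = 3 per group). The difference of -0.12 ± 0.27 had a 95% interval from -0.74 to 0.51 (limma's adjusted p = 0.974). The sign turned without control replicate 2 (0.065) and without juice replicate 1 (0.087).

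The α-glucosidase gene tobi varied most. It measured 4.54, 6.50 and 4.43 in control and 5.06, 6.22 and 5.98 in juice larvae. Control replicates 1 and 3 were the lowest of all 6 arrays, and control replicate 2 was the highest, above every juice array. The control pools thus spanned 4.20-fold and the juice pools 2.24-fold, where the median span of a tested gene over all 6 arrays was 1.54-fold. The SD within groups, 0.93, was larger than that of 98.6% of tested genes. The means were 5.16 ± 1.17 in control and 5.75 ± 0.61 in juice larvae (SD, n = 3 per group). The difference was 0.60 ± 0.58, with a 95% interval from -0.76 to 1.96 (limma's adjusted p = 0.931; two-sided exact permutation p = 0.5, where 0.1 is the smallest that 3 arrays against 3 allow). It depended on single pools. Without control replicate 2 it was 1.27 ± 0.35 (unadjusted p = 0.00945, adjusted p = 0.828 by limma), without control replicate 3 it was 0.23, and with both control replicate 1 and juice replicate 2 left out it was 0.055.

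Treh, which encodes trehalase, was among the steadiest genes of the larva. It measured 4.31, 4.21 and 4.17 in control and 4.12, 4.09 and 4.30 in juice larvae. Juice replicate 3 lay with the control arrays and the other juice arrays lay just below them. The means were 4.23 ± 0.07 and 4.17 ± 0.12 (SD, n = 3 per group), and only 7.60% of tested genes had a smaller SD within groups than its 0.097. The difference was -0.061 ± 0.13, and its 95% interval of -0.38 to 0.25 was the narrowest among the members (limma's adjusted p = 0.973). The interval of tobi, by comparison, held both a lower level and a more than 3-fold higher level with juice.

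**Figure D2:**
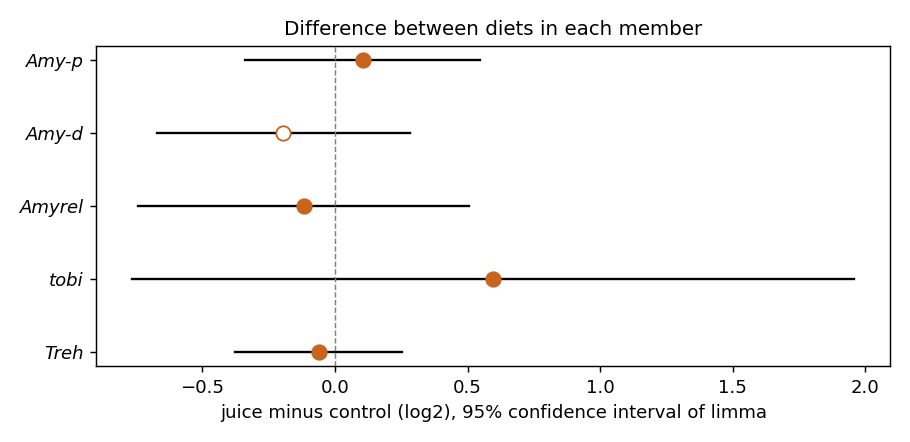
Difference between juice and control means on the log2 scale for each gene, with limma's 95% confidence interval as a line; the open point is Amy-d, taken from the fit with dim genes kept. All 5 intervals include 0, and that of tobi, from -0.76 to 1.96, is the widest.

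Whether the members rose and fell together from array to array was asked with the correlation of each of the 10 pairs over the 6 arrays. Amy-p, Amyrel and tobi were each highest in control replicate 2 and juice replicate 2, and Amy-p and Amyrel gave the closest pair, with Pearson's r = 0.82 (exact permutation p = 0.0417) and Spearman's rho = 0.77 (exact permutation p = 0.103). After adjustment over the 10 pairs the exact p was 0.399. The relation leaned on the brightest arrays: without juice replicate 2 and control replicate 2, r was 0.46. Amyrel and tobi had r = 0.69 (exact p = 0.160, adjusted 0.399), and Amy-p and tobi r = 0.69 (exact p = 0.132, adjusted 0.399). Without juice replicate 2 and control replicate 2, the r of Amy-p and tobi was 0.15. The copies Amy-p and Amy-d had r = 0.11 (exact p = 0.814, adjusted 0.814), and this value rested on the same arrays: without juice replicate 2, in which Amy-p was highest and Amy-d low, and control replicate 2, r was 0.85 (exact permutation p = 0.0417, adjusted 0.139). That p is the smallest that the remaining arrays allow, and the arrays left out were those farthest from the median of Amy-p. The correlations of Treh with the other members ran from -0.66 to -0.14. None of the 10 pairs passed adjusted p under 0.05.

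The maltases, which act next to the amylases in the gut, include the clusters Mal-A and Mal-B. All 10 had a row and 9 were tested, with 0 at adjusted p and 0 at unadjusted p under 0.05 by limma. Their means were higher with juice in 6 and lower in 3, where 44.9% of all tested genes were higher. The median difference was 0.18, beside -0.025 over all tested genes. Mal-A1 measured 4.57, 5.31 and 4.19 in control and 5.00, 5.50 and 5.36 in juice larvae, a difference of 0.59 ± 0.29. Its order of arrays was close to that of tobi, with control replicates 1 and 3 lowest and control replicate 2 among the high arrays. The differences were 0.44 ± 0.27 in Mal-A8, 0.37 ± 0.27 in Mal-B2 and -0.28 ± 0.27 in Mal-A5.

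Over the arrays, tobi ran with the mean of the maltases, though not with each of them. Mal-A5 was highest in control replicate 3 (7.50), and Mal-A6 was lowest in juice replicate 1 (6.965). Mal-A4 stood out in control replicate 2, at 5.17 beside 3.38 to 3.91 on the other arrays. The mean of the 9 tested maltases, relative to all arrays, was -0.30, 0.38 and -0.27 in control and -0.078, 0.21 and 0.056 in juice larvae. Its correlation with tobi was r = 0.97 (exact permutation p = 0.00278) with rho = 0.94 (exact permutation p = 0.0167), and r was also 0.97 without control replicates 2 and 3, the arrays farthest out in tobi. This was 1 of 45 relations of the 5 genes with the means of 9 gene lists, computed after the values had been seen. Adjusted over all 45, the exact p was 0.0625, and 0 of 45 passed 0.05. At unadjusted exact p under 0.05 there were 3 of 45, this one and the closest relations of Amy-p and Amyrel given below. With the maltase mean, Amy-p and Amyrel each had r = 0.73 (exact permutation p = 0.0986 and 0.110, both adjusted 0.493), Amy-d 0.33 and Treh -0.25. Amy-p ran closest with the other glucosidase genes, a list of 4 that holds the endoplasmic reticulum glucosidase genes GCS1, GCS2alpha and GCS2beta and the gene CG33080 (r = 0.98, exact permutation p = 0.00139, adjusted 0.0625; rho = 1.0, exact permutation p = 0.00278; r = 0.96 without juice replicate 2 and control replicate 2). All 4 had a higher mean with juice, by 0.025 to 0.32, and 0 passed unadjusted p under 0.05 by limma. The differences were 0.32 ± 0.27 in CG33080, 0.13 ± 0.18 in GCS2beta, 0.059 ± 0.16 in GCS1 and 0.025 ± 0.16 in GCS2alpha.

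Amyrel ran closest with the other digestive enzymes of the midgut, the trypsins, Jonah proteases, lysozymes and the lipase gene mag. The mean of the 19 tested genes of this list, relative to all arrays, was -0.28, 0.23 and 0.056 in control and -0.17, 0.16 and 0.00097 in juice larvae. The correlation with Amyrel was r = 0.93 (exact permutation p = 0.0167, adjusted over the 45 relations 0.25) with rho = 0.94 (exact permutation p = 0.0167), and r = 0.93 without juice replicate 1 and control replicate 2. The list mean was thus lowest in control replicate 1 and juice replicate 1, the arrays in which Amyrel was lowest. This held for 8 of the 19 genes taken singly, among them betaTry, alphaTry and mag, and not for the other 11. The relation to this list was not particular to Amyrel. Amy-p had r = 0.80 with its mean (exact permutation p = 0.0583, adjusted 0.493) and tobi r = 0.72 (exact permutation p = 0.129, adjusted 0.493). Amy-d had r = 0.48 and Treh r = -0.37. Between the diets 8 of the 19 were higher and 11 lower, with a median difference of -0.036. The Jonah protease gene Jon99Fii was the 1 gene at unadjusted p under 0.05 by limma, where the share of all tested genes was 4.68%. It measured 3.67, 3.73 and 3.57 in control and 3.39, 3.24 and 3.35 in juice larvae, and it did not pass adjustment. The count of such genes was 0 after quantile normalization or with equal array medians, and 2 without juice replicate 1. The trypsin gene thetaTry differed by 0.60 ± 0.34, the lysozyme gene LysX by -0.49 ± 0.37 and the trypsin gene kappaTry by 0.23 ± 0.18.

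**Figure D3:**
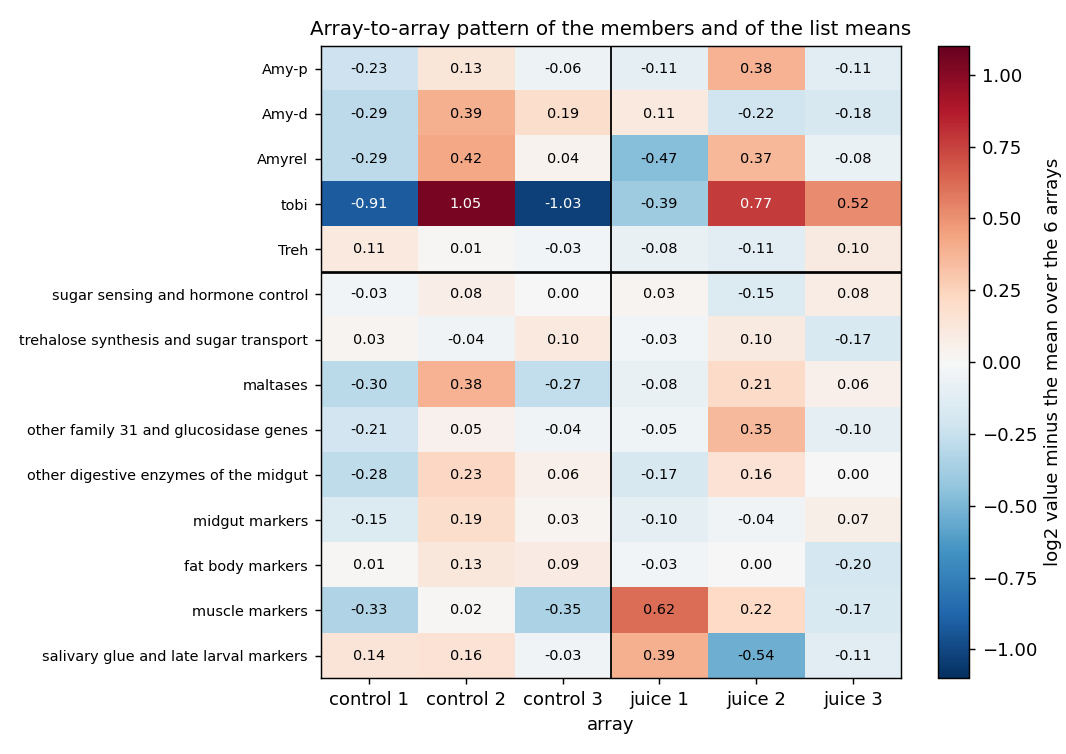
Deviation of each gene (upper 5 lines) and of each gene list mean (lower 9 lines) from its own mean over the 6 arrays, on the log2 scale; columns are arrays, red is above and blue below the mean. The lines of tobi and the maltases share the high control replicate 2 (1.05 and 0.38) and the low control replicates 1 and 3, and Treh stays within 0.12 of its mean on every array.

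The midgut itself was followed by 6 tested marker genes of 8 listed, a pair of which, betaTry and Jon65Aiv, are also digestive enzymes of the list above. The mean of these markers, relative to all arrays, ran from -0.15 to 0.19 in control and from -0.10 to 0.067 in juice larvae. It was lowest in control replicate 1 (-0.15) and juice replicate 1 (-0.10) and highest in control replicate 2 (0.19). Its correlation with Amyrel was r = 0.71 (exact permutation p = 0.114, adjusted 0.493; rho = 0.71, exact permutation p = 0.136; r = 0.34 without juice replicate 1 and control replicate 2), and with tobi r = 0.64 (exact permutation p = 0.174, adjusted 0.493; rho = 0.54, exact permutation p = 0.297; r = 0.83 without control replicates 2 and 3). The part of midgut content in the values of Amyrel and tobi was not tested. The mucin gene Mur29B, with a difference of -1.08 ± 0.33, was the 1 midgut marker at unadjusted p under 0.05, and Npc2f, mex1 and Jon65Aiv differed by 0.38 ± 0.21, 0.20 ± 0.14 and -0.15 ± 0.15. Of other tissues, muscle markers had 4 of 5 higher with juice (median 0.60), all 4 of them at unadjusted p under 0.05 by limma, where the share of all tested genes was 4.68%. That count depended on single arrays, falling to 2 without control replicate 1, without control replicate 3 or without juice replicate 2. It was 0 without control replicate 1 and juice replicate 2 together. The mean of the muscle markers ran from -0.35 to 0.015 in control and from -0.17 to 0.62 in juice larvae. Fat body markers had 3 of 4 lower (median -0.18), with 0 at unadjusted p under 0.05. Their mean, relative to all arrays, ran from 0.0090 to 0.13 in control and from -0.20 to -0.0025 in juice larvae, without overlap. The groups did not overlap in 2 of the 4 genes, where the share of all tested genes was 10%. Salivary glue and late larval genes had 7 of 8 lower (median -0.36), with 2 at unadjusted p under 0.05, both lower. The gene that was higher, ng1, measured 8.12 in juice replicate 1 and 2.07 to 2.93 on the other arrays. The mean of this list ran from -0.035 to 0.16 in control and from -0.54 (juice replicate 2) to 0.39 (juice replicate 1) in juice larvae. None of these markers passed adjustment. The members' correlations with the muscle, fat body and salivary glue list means were among the 45 relations. They ran from r = -0.70 (Amy-p with the salivary glue list, exact permutation p = 0.122, adjusted 0.493) to 0.64 (Amy-d with the fat body list, exact permutation p = 0.158, adjusted 0.493). The part of these tissues in the members' values was not tested.

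Genes that sense sugar or carry hormone signals to the digestive enzymes were set beside the members. Of 19 listed, 16 were tested, with 0 at adjusted p and 0 at unadjusted p under 0.05 by limma; 10 were higher and 6 lower, with a median difference of 0.082. The transcription factor gene cbt, a target of the sugar sensor Mondo, differed by -0.77 ± 0.42 and the insulin receptor gene InR by -0.56 ± 0.31, and juice replicate 2 was lowest in both. The sugar-induced transcription factor gene sug (sugarbabe) measured 4.94, 4.87 and 4.76 in control and 5.20, 5.03 and 4.98 in juice larvae. Its groups did not overlap, as in 10% of tested genes, and its difference was 0.21 ± 0.14. The partner of Mondo, bigmax, differed by 0.19 ± 0.13, also without overlap. Mondo itself measured 7.46, 7.61 and 7.12 in control and 7.59, 7.36 and 7.59 in juice larvae. The activin-like ligand gene daw, through which sugar represses digestive enzymes, measured 6.35, 6.38 and 6.85 in control and 6.33, 6.62 and 6.16 in juice larvae. These groups overlapped, as those of the members did.

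Around Treh, the genes of trehalose synthesis and sugar transport gave 9 tested genes of 12, with 0 at adjusted p and 2 at unadjusted p under 0.05 by limma, 1 in each direction, where the share of all tested genes at unadjusted p was 4.68%, and a median difference of -0.049. CG5171, a predicted trehalose phosphatase gene, measured 8.21, 7.55 and 8.41 in control and 7.16, 7.32 and 7.67 in juice larvae, a difference of -0.67 ± 0.25 (unadjusted p = 0.0322, adjusted p = 0.931). Only control replicate 2 fell among the juice arrays. UGP, which makes the UDP-glucose that trehalose synthesis draws on, differed by 0.46 ± 0.18 (unadjusted p = 0.0339, adjusted p = 0.931), and its groups did not overlap, as in 10% of tested genes. The glucose transporter gene Glut1 differed by -0.43 ± 0.21. Tps1, which encodes the trehalose-6-phosphate synthase, measured 4.41, 5.02 and 4.93 in control and 5.07, 5.57 and 4.51 in juice larvae, a difference of 0.27 ± 0.30 with overlapping groups. The count of 2 at unadjusted p depended on single arrays: it fell to 0 without control replicate 1, without control replicate 3, and without juice replicate 1 or 2.

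**Figure D4:**
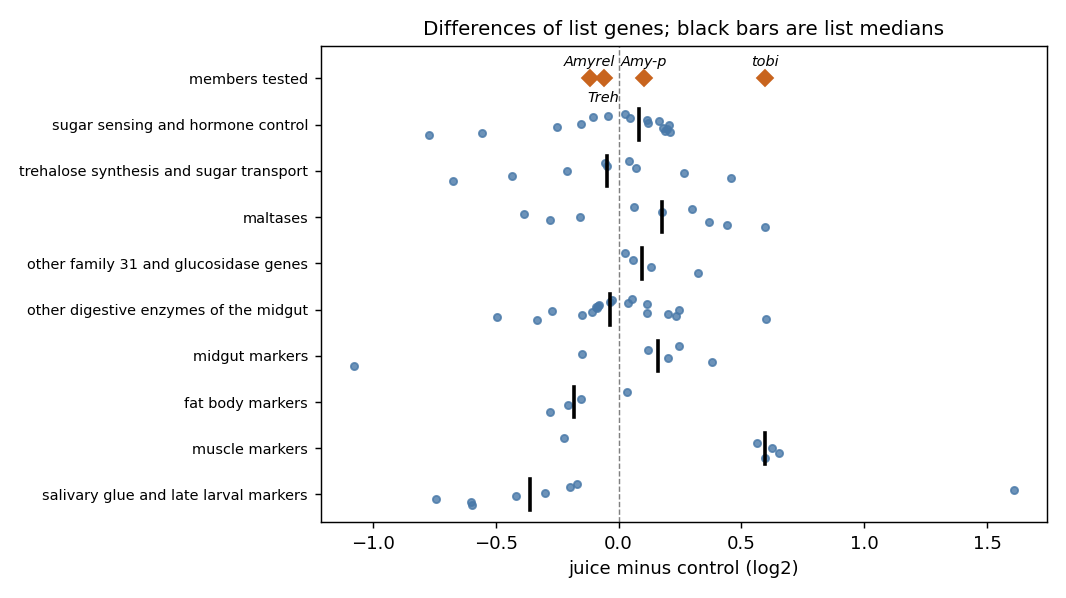
Difference between juice and control means on the log2 scale for the 4 tested members (diamonds) and for each tested gene of the 9 lists (points), with a black bar at the median of each list. Amy-p, Amyrel and Treh sit within 0.12 of 0, and tobi, at 0.60, lies level with the highest maltase, Mal-A1, at 0.59.

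Across the 10051 tested genes, those whose values followed each member most closely over the 6 arrays were named as a description, since with 6 arrays many genes reach a high r. For tobi they were CG15739 (Pearson's r = 0.99), CG33969 (r = 0.99) and Ilp2 (r = 0.97), a gene for an insulin-like peptide made in the brain. Ilp2 measured 3.08, 3.89 and 3.24 in control and 3.27, 3.79 and 3.64 in juice larvae, so that control replicates 1 and 3 were lowest and control replicate 2 highest, as in tobi. These values lay around or below the array medians, which ran from 3.60 to 3.77. An r above 0.95 was reached by 17 genes with tobi, 0.169% of those compared, and by 48 with Amy-p, 7 with Amy-d, 26 with Amyrel and 33 with Treh. Its relative Ilp5 measured 2.92, 3.46 and 3.02 in control and 2.86, 3.70 and 3.45 in juice larvae, low in control replicates 1 and 3 as well, but lowest in juice replicate 1. For Amyrel the closest genes were CG9903 (r = 0.99), CycC, which encodes cyclin C (r = 0.98), and CG11695 (r = 0.98). For Amy-p they were snoRNA:Psi18S-920, CG11699 and CG15743 (each r = 0.99), and for Amy-d the cytochrome P450 gene Cyp4e2 (r = 0.995), CG34176 (r = 0.98) and CG12531 (r = 0.97). For Treh they were Grip91, a component of the γ-tubulin ring complex (r = 0.99), CG14229 (r = 0.98) and the RNA helicase gene Dbp73D (r = 0.98).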

How the data were processed

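The authors deposited log2 expression values for each row of each array. Affymetrix Expression Console 1.4.0.38 and RMA are the tools listed in the submitters' processing notes. RMA as generally defined brings the arrays' distributions together, so a shift shared by most genes would largely be lost. Levels of different rows were compared only to choose the row of a gene, to set the filter and to call a signal high or dim. Of 16322 rows, 13441 named 1 gene in the platform annotation, and 13064 of these matched NCBI's fly gene table (Release 6 plus ISO1 MT). Rows that named several genes, or no gene, were not used. The brightest row stood for a gene, and the dimmest 25% of 13402 genes, by their mean over all arrays, were not tested.

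Limma 3.58.1 (lmFit and eBayes, R 4.3.3) compared the groups without covariates, with Benjamini-Hochberg adjustment over 10051 genes. Errors of differences are moderated standard errors. The labels do not say that pools came from separate cultures, so p-values measure only the spread between pools, which may be technical. The number of arrays limits the precision. In simulated data with 200 of 10051 genes changed, 2.24% of changes of 0.50 (log2), 44.9% of changes of 1.0 and 86.7% of changes of 2.0 were recovered. These are averages over randomly drawn tested genes, each simulated independently, without deviations shared by the genes of an array. They do not apply to tobi, whose SD was larger than that of most genes, or to Amy-d, which was not tested. Correlations over arrays used two-sided exact permutation tests. From each list described in full, up to 4 genes with the smallest unadjusted p were named, and for each member the 3 genes with the highest Pearson's r. Mondo, daw, Ilp5, Lsp2, Mlc2, Mal-A4, Mal-A6, betaTry, alphaTry, mag and ng1 were named beyond this rule, after their values were seen. Members and lists were chosen with earlier results of these data known. The alternatives tried are given in the closing section.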

Additional observations from a re-analysis of the deposited data

How the results depend on the processing

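No tested member passed adjusted p under 0.05 under any of the 16 alternative settings. These left out single arrays or the pair that stood apart, or changed the filter, scaling, variance model, array weights, summary of rows or design. Amy-d was tested only with dim genes kept in the fit, and the other 4 members in every setting. Each member had 1 row, so the summary of rows could not change its values. The count of all genes was 0 to 4 with 1 array left out, 4 being the count without juice replicate 3, and 470 at unadjusted p under 0.05. The sign of Amy-p turned without juice replicate 2 (-0.059), without control replicate 1 and juice replicate 2 together (-0.15) and with array weights (-0.013). That of Amyrel turned without control replicate 2 (0.065) and without juice replicate 1 (0.087), over a range of -0.33 to 0.087 with 1 array left out, and that of Treh without control replicate 1 and juice replicate 2 together (0.020) and with array weights (0.0042). With 1 array left out, tobi ran from 0.23 to 1.27 and Amy-d from -0.39 to -0.046. Correlations that changed sign were Amy-d with Amyrel (-0.54) and with tobi (-0.99) without the 2 arrays farthest out, Amy-d with Treh after quantile normalization (0.20) or with equal array medians (0.21), and tobi with Treh (0.019 and 0.13). The relation of tobi to the maltase mean had r of 0.96 to 0.97 and rho of 0.94, with adjusted p from 0.0625 to 0.469, the highest without the 2 arrays farthest out. With the replicate number as a block, limma gave 0 of the 4 tested members and 0 of all tested genes at adjusted p under 0.05. The differences were then 0.60 ± 0.36 in tobi, -0.12 ± 0.15 in Amyrel and -0.061 ± 0.16 in Treh. Over all tested genes, the deviations of same-numbered arrays correlated at -0.11, -0.074 and -0.082, and every control array correlated best with another number. Amyrel, however, ran in the same order of replicate numbers in both groups. With 3 arrays a group, these values cannot tell whether same-numbered pools shared a batch. Dim signal limits what can be said of Amy-d.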
